A study of Mus musculus with 28 samples.

Results

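This report describes 9 genes that take up lipid or bind fatty acids inside cells, Cd36, Vldlr, Lrp1, Fabp1, Fabp2, Fabp3, Slc27a2, Slc27a4 and Lipc. They were chosen by name from the 54163 genes listed for liver at 40 d, the 54189 for muscle at 40 d and the 54501 at 24 h. All 9 were found in each of the 3 tables. The libraries came from livers and muscles of male Lepob/Lepob mice on the C57BL/6J background, which lack working leptin. The label names no individual muscle. All mice, vehicle animals included, began the AMLN diet at 4 weeks of age and ate it for 20 weeks, a feeding model of steatohepatitis. In that diet 40% of the calories came from fat (18.5% from trans-fat) and 20% from fructose, and cholesterol made up 2% by weight. Treated mice received daily intraperitoneal aspirin at 3.0 mg/kg together with trimetazidine at 5.0 mg/kg, and vehicle mice received an equal volume of solvent. Each tissue had 6 treated and 6 vehicle samples after 40 d of dosing, and 1 treated and 1 vehicle sample at 24 h. Mice given either drug alone were not analysed here.

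Fatty acids reach a cell by several routes. Lipases such as hepatic lipase, the product of Lipc, free them from the triglyceride and phospholipid of circulating lipoproteins. Cd36 and the fatty acid transport proteins of the Slc27a family then move free fatty acids across the plasma membrane, and several Slc27a proteins also join them to coenzyme A. Lrp1 and Vldlr instead bring lipoprotein particles to the cell, Lrp1 by endocytosis of remnants in hepatocytes and Vldlr by binding triglyceride-rich particles, chiefly in muscle, heart and fat. Inside the cell, fatty acids are carried by small binding proteins whose genes have tissue-restricted expression, with Fabp1 known for liver, Fabp2 for intestine and Fabp3 for heart and muscle.

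The 3 binding protein genes belong to 1 family and are known for different tissues, so the 100 bases before each gene start in the tables are shown. They were read from RefSeq promoters of GRCm38.p6, in lower case and 5′ to 3′ on the plus strand, which is the strand of all 3 genes. The capitals mark the only match in these stretches to the hexamer AGGNCA repeated after a spacer of 1 base, a motif that resembles the element bound by peroxisome proliferator-activated receptors. It is read here on the other strand.
Fabp1 (chr6:71199727-71199826): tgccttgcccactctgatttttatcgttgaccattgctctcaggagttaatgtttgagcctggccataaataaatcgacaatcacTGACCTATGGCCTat
Fabp2 (chr3:122894972-122895071): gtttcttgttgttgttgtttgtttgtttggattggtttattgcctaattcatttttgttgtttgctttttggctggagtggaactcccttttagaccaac
Fabp3 (chr4:130308495-130308594): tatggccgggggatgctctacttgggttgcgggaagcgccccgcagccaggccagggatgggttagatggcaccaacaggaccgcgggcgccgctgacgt

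The match lies 55 to 67 bases before the RefSeq start of Fabp1, which is downstream of the start given in the tables. All 9 genes matched the RefSeq table, with 11 windows of 250 bases before to 50 after a start. On either strand, this repeat occurred in 0.381% of the 32851 windows of all genes and in the window of 1 of the 9, Fabp1. The single hexamer AGGTCA, a match to which forms 1 end of the Fabp1 repeat, occurred in 16.3% of all windows and in those of Slc27a2, Cd36, Fabp1 and Lipc. TATAAA occurred in 13.6% of all windows and, among the 9 genes, in that of Fabp1. A match describes letters only.

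Values are FPKM, fragments scaled to exon length and to a factor for each library, as the authors deposited them, so levels can be compared between genes. That factor was not the count of reads on genes. In the treated liver at 24 h it was 14.09 M, beside 17.0 M reads. The 28 libraries held 16.1 to 19.9 M reads on genes, and mitochondrial genes took 3.73% to 10.97% of them. Libraries were numbered by the submitters, as in 5_5. At 40 d the first digit of that number was never shared by a treated and a vehicle sample of a tissue, so what it stands for and the treatment cannot be told apart. The tissue labels fitted their markers: 8 hepatocyte genes summed to 27024 FPKM or more in every liver library and 8 muscle fibre genes to 32710 FPKM or more in every muscle library. In these bulk samples fewer cells of a type and less RNA per cell cannot be told apart. In liver at 40 d, 6 neutrophil genes summed to 31.6 to 469 FPKM in treated mice and 12.2 to 18.5 FPKM in vehicle mice, without overlap. The sum of 8 Kupffer cell and macrophage genes was 693 to 2819 FPKM in treated livers, highest in 4_5, and 657 to 831 FPKM in vehicle livers. Mitochondrial genes took 3.73% to 4.41% of reads in treated livers at 40 d and 4.37% to 6.54% in vehicle livers, with 5 of 6 treated libraries below every vehicle library. The part of these cells and of the mitochondrial share in the results for the 9 genes was not tested.

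In liver at 40 d, none of the 9 genes passed the test between treated and vehicle mice (limma on log2(FPKM + 1), Benjamini-Hochberg adjusted p under 0.05 over 10995 genes), against 28 of all genes tested, or 0.255%. That 28 became 0 without treated 5_3 or vehicle 2_3 and 83 without treated 5_2, whereas the count among the 9 stayed at 0. Fitted log2 fold changes of treated over vehicle were below 0 for 8 of the 9, against 51.0% of all genes. Their median was -0.20 and that of all genes -0.00. Before adjustment, 4 of the 9 had p under 0.05 (Cd36, Lipc and Fabp3 with lower and Lrp1 with higher fitted values), against 13.2% of all genes. Fabp3 passed the filter on low values through all 6 vehicle but only 2 treated libraries. Such a selection can favour lower treated values, so nothing is read from the counts or the median that hold it. By limma voom on reads 0 of the 9 were called and 4 had an unadjusted p under 0.05. Both groups overlapped for each of the 9.

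**Figure D1:**
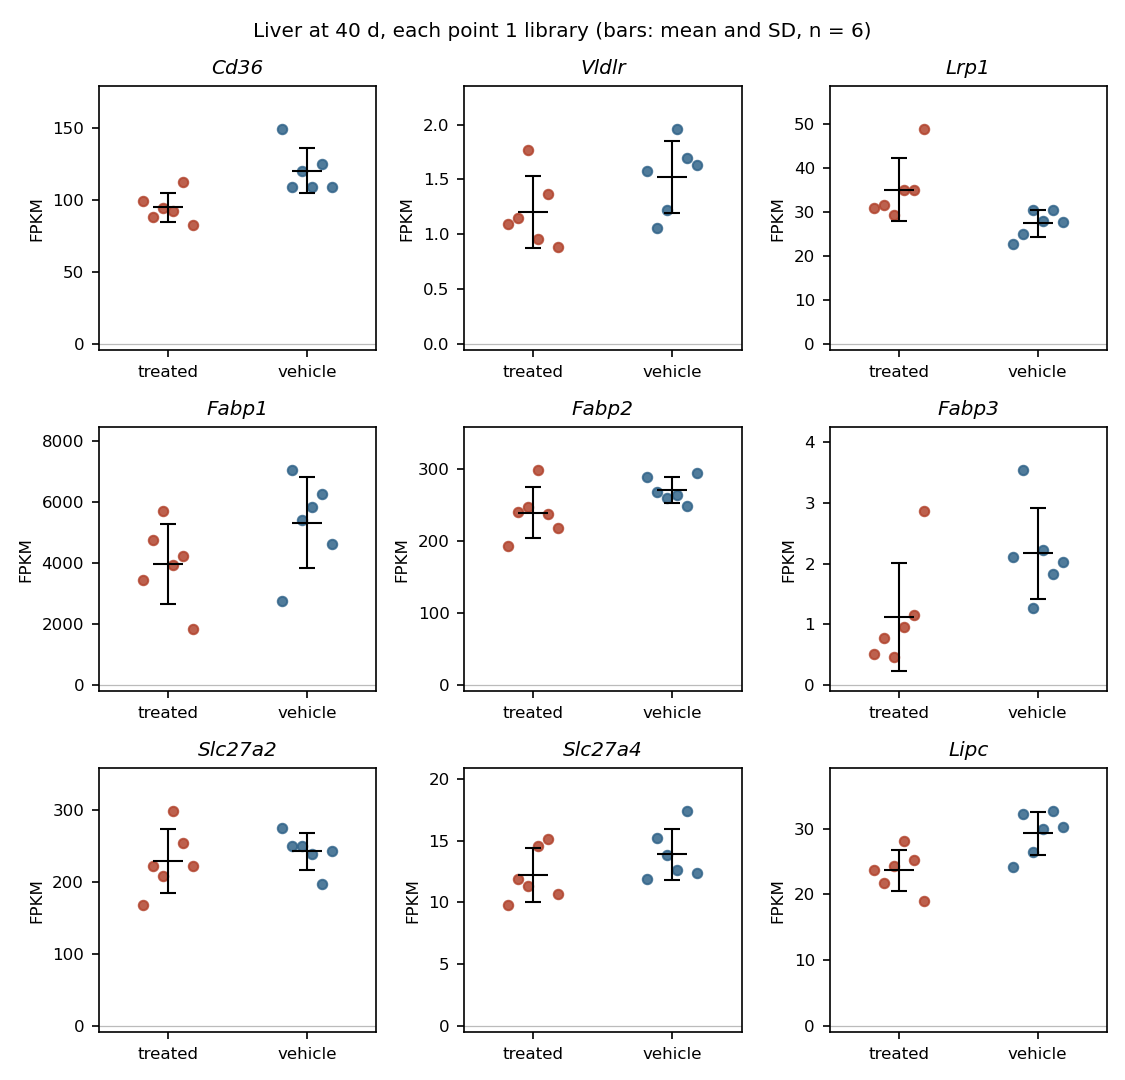
FPKM of the 9 genes in each liver library at 40 d, with treated mice in red and vehicle mice in blue; points are single libraries and bars the mean and SD of 6. All groups overlap. Of the 6 treated values, 5 lie below every vehicle value for Cd36, Fabp2 and Fabp3, and 5 lie above every vehicle value for Lrp1.

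Cd36 (ENSMUSG00000002944, chr5:17781690-17888801, minus strand, coordinates of GRCm38 as in the tables) encodes the scavenger receptor and fatty acid translocase, known to be induced in fatty liver. Its lowest, median and highest values were 82.4, 93.5 and 112 FPKM in treated livers, against 109, 115 and 149 FPKM in vehicle livers. Only 5_4 among the treated livers reached the vehicle range. The means were 94.7 ± 10.1 FPKM in treated and 120 ± 15.7 FPKM in vehicle livers (SD, n = 6 each). Treated over vehicle, this was a fitted log2 fold change of -0.34 (SE 0.10, 95% interval -0.55 to -0.12), with an adjusted p of 0.18 by limma. Across the alternative settings that adjusted p ran between 0.105 and 0.356.

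The transport proteins were closer between groups. Slc27a2 (ENSMUSG00000027359, chr2:126552407-126588243, plus strand) encodes a transporter and very long-chain acyl-CoA synthetase of liver and kidney. It had a lowest, median and highest value of 168, 223 and 299 FPKM in treated livers and 197, 248 and 275 FPKM in vehicle livers. The treated group held both the lowest value, in 4_5, and the highest, in 5_3. Its fitted log2 fold change was -0.10 (95% interval -0.38 to 0.18, adjusted p 0.782 by limma), but -0.01 without treated 4_5, -0.18 without treated 5_3, -0.06 without vehicle 2_1 and -0.16 without vehicle 3_2. Slc27a4 (ENSMUSG00000059316, chr2:29802634-29817522, plus strand) encodes a more widely expressed family member. Its values were 9.76, 11.6 and 15.1 FPKM in treated livers and 11.9, 13.2 and 17.4 FPKM in vehicle livers, with 3 treated livers below all vehicle livers. Its fitted log2 fold change was -0.17 (95% interval -0.42 to 0.08, adjusted p 0.557 by limma), or -0.11 without vehicle 3_2. For both transporters the interval still holds the fitted value of Lipc, so these samples do not separate either gene from a difference of that size. Of the exon bases of Slc27a2, 11.2% lie opposite Gm26697, and whether counting used strand is not given.

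The lipoprotein receptors lay on different sides of 0. Lrp1 (ENSMUSG00000040249, chr10:127538161-127621148, minus strand) had a lowest, median and highest value of 29.2, 33.2 and 48.8 FPKM in treated livers, against 22.8, 27.9 and 30.4 FPKM in vehicle livers. Each of the 6 treated values exceeded the vehicle mean, and all but 5_2 lay above the highest vehicle liver. The means were 35.0 ± 7.14 FPKM in treated and 27.4 ± 2.99 FPKM in vehicle livers (SD, n = 6 each). The fitted log2 fold change was 0.33 (SE 0.12, 95% interval 0.08 to 0.59), with an adjusted p of 0.256 by limma. Without 5_5, the treated library that stood apart at 48.8 FPKM, it was 0.23 with an adjusted p of 0.368 by limma.

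In that same library 8 endothelial markers summed to 22.3 FPKM and the hepatocyte markers to 27024 FPKM, the lowest of all 12 liver libraries at 40 d for both lists. The ranges were 22.3 to 53.2 FPKM in treated and 33.5 to 46.3 FPKM in vehicle livers for endothelial markers, and 27024 to 41662 FPKM in treated and 35498 to 40852 FPKM in vehicle livers for hepatocyte markers. After the group means were subtracted on the log scale, Lrp1 had a correlation of -0.80 with the summed endothelial markers and of -0.65 with the hepatocyte markers over the 12 libraries, which share their library scaling. Lists of other cells gave -0.65 for red cells, 0.60 for slow or oxidative fibres and 0.51 for enterocytes. The part of these cells in the Lrp1 values was not tested.

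Vldlr (ENSMUSG00000024924, chr19:27216484-27254231, plus strand) was near the detection filter in liver, which asked for at least 1 FPKM in at least 6 of 12 libraries. It had values of 0.881, 1.12 and 1.77 FPKM in treated livers and 1.06, 1.60 and 1.96 FPKM in vehicle livers (lowest, median and highest), from 148 to 334 reads in treated and 180 to 377 reads in vehicle livers. Of the libraries at or above 1 FPKM, 4 were treated and 6 vehicle, and the groups overlapped over most of their range. The fitted log2 fold change was -0.20 (95% interval -0.44 to 0.04, adjusted p 0.463 by limma) on the log2(FPKM + 1) scale, which understates changes of low genes. It was -0.35 by limma voom on reads (adjusted p 0.434).

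Lipc (ENSMUSG00000032207, chr9:70798128-70952226, minus strand) had a lowest, median and highest value of 19.0, 24.0 and 28.2 FPKM in treated livers, against 24.2, 30.0 and 32.7 FPKM in vehicle livers. Each of the 6 treated values was under the vehicle mean, and 3 were under every vehicle value. The means were 23.7 ± 3.13 FPKM in treated and 29.3 ± 3.31 FPKM in vehicle livers (SD, n = 6 each). On the log2 scale the fitted change was -0.30 (SE 0.10, 95% interval -0.51 to -0.08), with an adjusted p of 0.232 by limma. The fitted values of Lipc and Cd36 were close, and neither passed the threshold over all genes.

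Among the binding proteins, Fabp1 (ENSMUSG00000054422, chr6:71199827-71205023, plus strand), whose promoter carries the repeat shown above, was by far the most abundant of the 9 genes in liver. Its values were 1829, 4083 and 5724 FPKM in treated livers, against 2768, 5620 and 7056 FPKM in vehicle livers (lowest, median and highest). The groups overlapped widely, with 5_5 lowest among the treated and 2_1 lowest among the vehicle livers. The fitted log2 fold change was -0.44 (SE 0.28, 95% interval -1.04 to 0.16, adjusted p 0.53 by limma), so the interval holds both no difference and a level less than that of vehicle by more than a factor of 2. Without 5_5 it was -0.23. Without vehicle 2_1 it was -0.62 (95% interval -1.17 to -0.06, adjusted p 0.367 by limma). The ratio of Fabp1 to the summed hepatocyte markers, a sum that does not include it, was 6.77% to 13.7% in treated livers and 7.01% to 17.9% in vehicle livers.

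Fabp2 (ENSMUSG00000023057, chr3:122895072-122899506, plus strand), the intestinal form, was also abundant in these livers, at 193, 239 and 298 FPKM in treated and 248, 266 and 294 FPKM in vehicle livers (lowest, median and highest). Of the treated livers, 5 lay below all vehicle livers and 5_3 lay above them all. Its fitted log2 fold change was -0.19 (95% interval -0.41 to 0.03, adjusted p 0.455 by limma). The defining enterocyte markers were at or near 0 in nearly all of these livers. Alpi, the intestinal alkaline phosphatase, had a median of 0 FPKM in treated and 0.0119 FPKM in vehicle livers, with 3.59 FPKM at most in treated and 0.0671 FPKM in vehicle livers. The highest Alpi value was that of 5_3, the library with the highest Fabp2. Only in 5_3 and treated 4_5 were all 8 enterocyte markers above 0, and 4_5 had the lowest Fabp2, 193 FPKM. All FPKM values of 5_3 summed to 491682, the most of the livers at 40 d. Its Fabp2 level came from 4416 reads, against 4487 reads in treated 5_2. The part of scaling and of intestinal transcripts in the Fabp2 value of 5_3 was not tested. Without 5_3, the fitted log2 fold change of Fabp2 was -0.25 with an adjusted p of 0.331 by limma. The full list of 8 enterocyte markers, which includes Apob and Anpep and so counts hepatocyte transcripts too, summed to 310 to 415 FPKM in treated and 359 to 457 FPKM in vehicle livers.

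Fabp3 (ENSMUSG00000028773, chr4:130308595-130315463, plus strand), the heart and muscle form, was at trace level in liver. It had 0.453, 0.861 and 2.86 FPKM in treated livers, from 7 to 44 reads, against 1.27, 2.07 and 3.54 FPKM in vehicle livers, from 19 to 49 reads (lowest, median and highest). It passed the filter through 2 treated and all 6 vehicle libraries, so it was tested only because of its level in vehicle mice. Of the treated livers, 5 lay below every vehicle liver, and 5_5 stood apart at 2.86 FPKM. The fitted log2 fold change was -0.64 (SE 0.22, 95% interval -1.11 to -0.16, adjusted p 0.239 by limma) on the log2(FPKM + 1) scale. By limma voom on reads it was -1.14 (adjusted p 0.21), and without 5_5 it was -0.83 (adjusted p 0.0838 by limma). Skeletal muscle fibre markers summed to at most 4.54 FPKM in treated and 0.181 FPKM in vehicle livers. Of the exon bases of Fabp3, 19.6% lie opposite Gm10570 or Zcchc17, so a part of so few reads may belong to those genes.

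**Figure D2:**
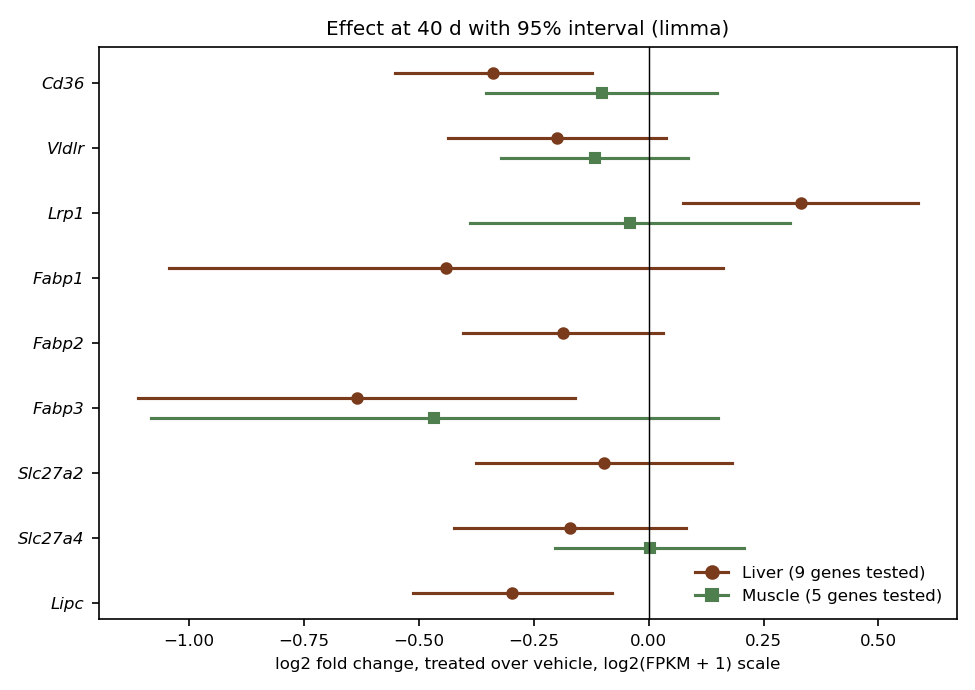
Fitted log2 fold change of treated over vehicle at 40 d on the log2(FPKM + 1) scale with its 95% interval, for liver (circles, 9 genes tested) and muscle (squares, 5 genes tested). In liver the unadjusted intervals of Cd36, Lipc and Fabp3 lie below 0 and that of Lrp1 above it, and in muscle all 5 cross 0.

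Cidec, a lipid droplet protein gene on the adipocyte marker list, had 72.8 to 146 FPKM in treated and 135 to 203 FPKM in vehicle livers, with overlap. Its fitted log2 fold change was -0.78, and it was not called (adjusted p 0.0902 by limma). The defining fat cell genes Adipoq, Plin1, Lep and Retn were at most 0.115 FPKM in treated and 0.313 FPKM in vehicle livers, so nearly all of that list's sum, 73.1 to 147 FPKM in treated and 135 to 205 FPKM in vehicle livers, was Cidec. Another fat cell gene of the list, Cfd, had medians of 0.779 FPKM in treated and 0.289 FPKM in vehicle livers. Within the groups, Cd36 had a correlation of -0.19 with the sum of that list over the 12 liver libraries.

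In order of level, treated livers ran Fabp1, Fabp2, Slc27a2, Cd36, Lrp1, Lipc, Slc27a4, Vldlr and Fabp3. Library ranges overlapped for the neighbours Fabp2 and Slc27a2 and for Vldlr and Fabp3, but not for Lrp1 (29.2 to 48.8 FPKM) and Lipc (19.0 to 28.2 FPKM). In vehicle livers Lipc stood above Lrp1 and Fabp3 above Vldlr, both pairs with overlap, and the other places were the same. The swap of Lrp1 and Lipc was picked out after its values were seen and was not tested as such.

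Within the groups the 9 genes did not vary as a block in liver. After subtraction of the group means, the correlations of the 36 pairs over 12 libraries ran from -0.47 to 0.84 with a median of 0.06. The highest was between Fabp2 and Slc27a2, at 0.84, followed by Fabp1 and Lipc, at 0.71. The lowest was between Fabp1 and Fabp3, at -0.47. Of the other 10994 genes tested, Dmd (r = 0.95), Nab1 (0.94) and Ahcyl1 (0.93) varied most like Cd36, and Dcaf6 (0.93), Hykk (0.91) and Tiprl (0.89) most like Vldlr, over the same 12 libraries. These are the top of a long ranking and are given as a description.

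Muscle held another set of these genes. Only Cd36, Vldlr, Lrp1, Fabp3 and Slc27a4 passed the filter at 40 d, and none of these 5 passed the test, as none of the 11708 genes tested did (0% called). Before adjustment 0 of the 5 had p under 0.05, against 3.85% of all genes, or 451. Fitted log2 fold changes were below 0 for 4 of the 5, against 51.4% of all genes, with a median of -0.10 against -0.00. All 5 had an adjusted p of 0.999 by limma. By limma voom on reads 0 of the 5 were called and 0 had an unadjusted p under 0.05, beside 0 and 430 of all genes.

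**Figure D3:**
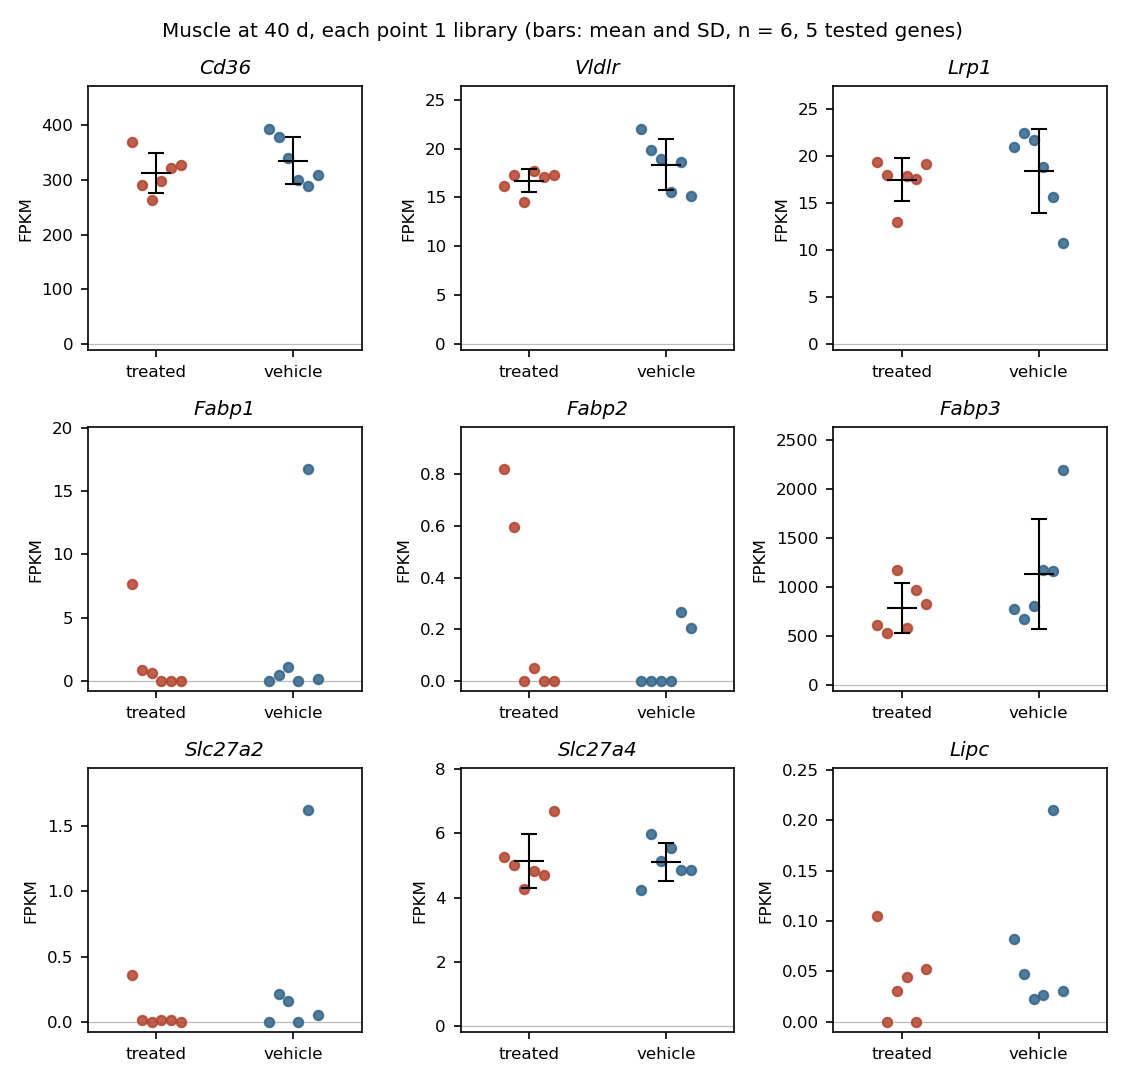
FPKM of the 9 genes in each muscle library at 40 d, with treated mice in red and vehicle mice in blue; points are single libraries, and bars give the mean and SD of 6 for the 5 tested genes. Fabp3 reaches 2192 FPKM in 1 vehicle library, and Fabp1 and Slc27a2 are near 0 but for 1 treated and 1 vehicle library.

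Fabp3, at trace level in liver, was the most abundant of the 9 genes in muscle. Its lowest, median and highest values were 528, 719 and 1175 FPKM in treated muscles, against 669, 982 and 2192 FPKM in vehicle muscles. Both groups overlapped, with 3 treated muscles below all vehicle muscles and 6_1 far above the other vehicle muscles. For treated over vehicle the fitted log2 fold change was -0.47 (SE 0.29, 95% interval -1.08 to 0.15). The mean was 783 ± 255 FPKM in treated muscles (SD, n = 6), against 1129 ± 561 FPKM in vehicle muscles (SD, n = 6), or 916 FPKM in vehicle muscles without 6_1. Without that library the fitted log2 fold change was -0.25.

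Cd36 followed Fabp3, at 263, 309 and 370 FPKM in treated and 289, 325 and 393 FPKM in vehicle muscles (lowest, median and highest). The groups overlapped over most of their range, and the fitted log2 fold change was -0.10 (95% interval -0.35 to 0.15), or -0.05 without vehicle 2_1, -0.07 without vehicle 2_3 and -0.06 without treated 5_2. Vldlr, near 1 FPKM in liver, had 14.5, 17.2 and 17.7 FPKM in treated and 15.1, 18.7 and 22.0 FPKM in vehicle muscles. All 6 treated muscles lay below the vehicle mean, yet only 1 lay below every vehicle muscle, and the fitted log2 fold change was -0.12 (95% interval -0.32 to 0.09), or -0.07 without vehicle 2_1.

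Lrp1 had 13.0, 17.9 and 19.3 FPKM in treated and 10.7, 19.9 and 22.4 FPKM in vehicle muscles (lowest, median and highest). Its treated range lay inside the vehicle range, and the fitted log2 fold change was -0.04 (95% interval -0.39 to 0.31), a sign that turned with the scaling of the libraries. Slc27a4 had 4.28, 4.92 and 6.70 FPKM in treated and 4.25, 5.00 and 5.98 FPKM in vehicle muscles, with a fitted log2 fold change of 0.00 (95% interval -0.20 to 0.21), and its sign too turned when single libraries were left out. In order of level both groups ran Fabp3, Cd36, then Lrp1 and Vldlr, which overlapped, then Slc27a4.

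Between muscles these genes varied together with tissue markers. After subtraction of the group means, Fabp3 had a correlation of 0.81 with the summed muscle fibre markers over the 12 muscle libraries. It had 0.58 with 8 slow or oxidative fibre markers and -0.66 with 8 adipocyte markers. Lrp1 had -0.86 with the fibre markers and 0.79 with the adipocyte markers, and Fabp3 and Lrp1 had -0.88 with each other. Cd36, Vldlr and Slc27a4 had 0.68, 0.63 and 0.69 with the adipocyte markers. The correlation of Cd36 was as high with other lists, 0.69 with the Kupffer cell and macrophage markers and 0.70 with the enterocyte markers. Fibre markers summed to 69616 FPKM in vehicle 6_1, 62403 FPKM in treated 5_2 and 58017 FPKM in vehicle 3_2, the 3 highest of 12. Those libraries held the 3 lowest Lrp1 values, 10.7, 13.0 and 15.6 FPKM. All values of a library share its scaling, and the part of fibre, fat and other cell content in these levels was not tested.

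**Figure D4:**
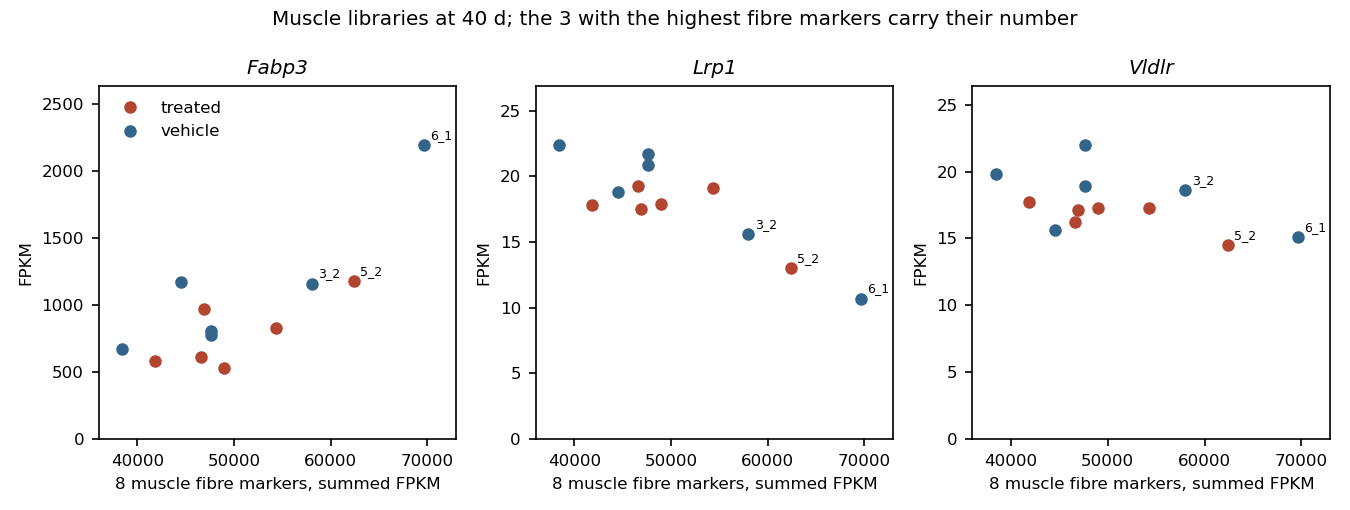
FPKM of Fabp3, Lrp1 and Vldlr against the summed FPKM of 8 muscle fibre markers in the 12 muscle libraries at 40 d, treated in red and vehicle in blue. Fabp3 is highest and Lrp1 lowest in library 6_1, which also has the highest marker sum.

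The ranges of these lists overlapped between the groups. Fibre markers summed to 41836 to 62403 FPKM in treated and 38453 to 69616 FPKM in vehicle muscles. Slow or oxidative fibre markers summed to 340 to 1883 FPKM in treated and 458 to 2453 FPKM in vehicle muscles. Adipocyte markers summed to 176 to 1610 FPKM in treated and 356 to 1405 FPKM in vehicle muscles. Adipoq and Plin1, genes of fat cells, were found in every muscle library, at 37.9 FPKM or more in treated and 71.4 FPKM or more in vehicle muscles for Adipoq. Cd36 is known from fibres, fat cells and capillaries alike, and the share of each in its level was not tested. Most like Fabp3 within the groups were Acaa2 (r = 0.97), a thiolase of mitochondrial beta-oxidation, Trip10 (0.96) and Eci1 (0.96), an isomerase of the same pathway. Most like Cd36 were Net1 (0.94), Sptlc2 (0.93) and Ppp1r21 (0.93), each over 12 libraries and out of 11707 genes.

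The 4 genes of high level in liver and not in muscle were Fabp1, Fabp2, Slc27a2 and Lipc. In most muscle libraries at 40 d they were at or near 0, and they were not tested there. Fabp1 was listed at 0 in 3 treated and 2 vehicle muscles, and reached 7.65 FPKM (75 reads) in treated 4_5 and 16.7 FPKM (143 reads) in vehicle 3_2. The next highest values were 0.849 FPKM among treated and 1.06 FPKM among vehicle muscles. Slc27a2 was highest in the same libraries, at 0.361 FPKM (24 reads) in 4_5 and 1.62 FPKM (94 reads) in 3_2. Lipc was at most 0.105 FPKM in treated and 0.210 FPKM in vehicle muscles, and Fabp2 at most 0.819 FPKM in treated and 0.268 FPKM in vehicle muscles.

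Hepatocyte markers in muscle summed to 5.50 to 43.2 FPKM in treated libraries, highest in 4_5, and to 9.95 to 185 FPKM in vehicle libraries, highest in 3_2. The ratio of Fabp1 to that sum was 17.7% in muscle 4_5 and 9.03% in muscle 3_2, against 6.77% to 13.7% in treated and 7.01% to 17.9% in vehicle livers. Those were the highest ratios of their groups. Over all muscles at 40 d the Fabp1 ratio started at 0% in both groups, with medians of 3.29% in treated and 1.07% in vehicle libraries. Vehicle muscle 2_3 had a larger marker sum than 4_5, 46.3 FPKM, and a Fabp1 ratio of 0.996%. For Slc27a2 the ratio was 0.835% in muscle 4_5 and 0.875% in muscle 3_2, against 0.501% to 0.822% in treated and 0.543% to 0.696% in vehicle livers. That of Fabp2 was 1.89% in muscle 4_5 and 0.145% in muscle 3_2, from 14 and 4 reads, against 0.593% to 0.808% in treated and 0.634% to 0.829% in vehicle livers. That of Lipc was 0.243% in muscle 4_5 and 0.114% in muscle 3_2, from 4 and 7 reads, against 0.0584% to 0.0726% in treated and 0.0614% to 0.0902% in vehicle livers. The ratios of Slc27a2, Fabp2 and Lipc in both muscles thus lay outside the ranges of the livers at 40 d. That of Fabp1 in muscle 4_5 lay above the treated livers but inside the vehicle range, and in muscle 3_2 inside both. Where the muscle libraries' hepatocyte transcripts came from was not tested.

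**Figure D5:**
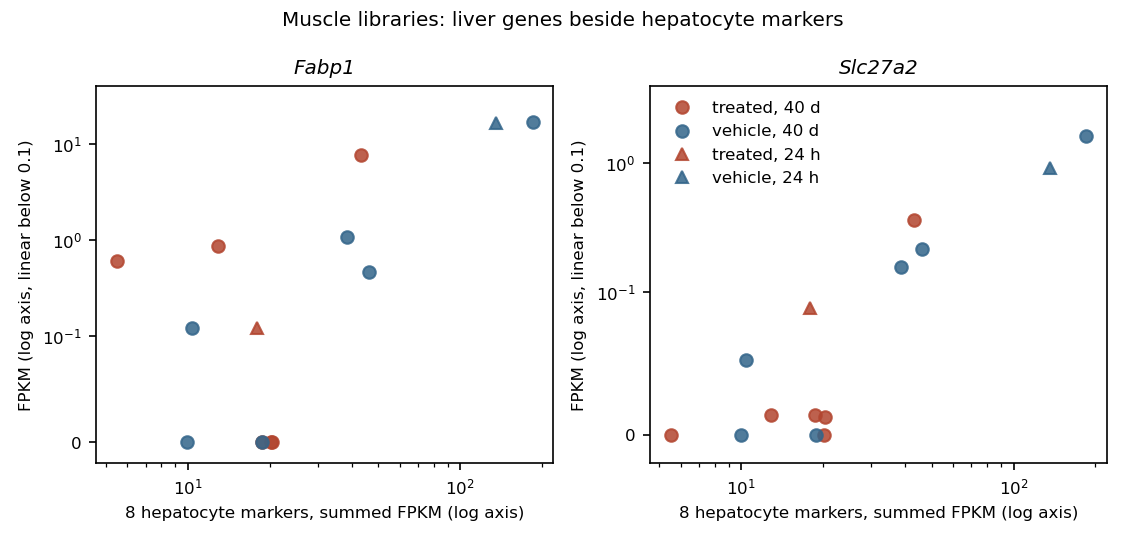
FPKM of Fabp1 and Slc27a2 against the summed FPKM of 8 hepatocyte markers in 12 muscle libraries at 40 d (circles) and 2 at 24 h (triangles), treated in red and vehicle in blue, with log axes that are linear below 0.1 on the vertical. The 2 libraries with marker sums of 185 and 136 FPKM, both vehicle, have the highest values of both genes.

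The effect in liver was set against that in muscle by a limma contrast over the 24 libraries at 40 d. Of the 9436 genes that passed the filter in both tissues, 1 was called (0.0106%), and 0 of the 5 lipid uptake genes among them were. Before adjustment 0 of the 5 had p under 0.05, against 5.21% of all genes. Of the 5, 4 were below 0, against 49.8% of all genes. These counts hold Fabp3, which passed the liver filter through all 6 vehicle but only 2 treated libraries. Nothing is read from these counts. For Lrp1 the liver effect minus the muscle effect was 0.37 on the log2 scale (95% interval -0.05 to 0.80, adjusted p 0.986 by limma). For Cd36 it was -0.24 (95% interval -0.54 to 0.07, adjusted p 0.997 by limma). The other 3 lay between -0.17 and -0.08, with intervals that held 0. With single libraries left out, that difference ran from -0.38 to -0.04 for Fabp3, from -0.23 to -0.11 for Slc27a4 and from -0.15 to -0.03 for Vldlr. By limma voom it was -0.68 for Fabp3 and -0.23 for Vldlr. The higher fitted value of Lrp1 in liver and the value near 0 in muscle were thus not shown to differ.

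At 24 h each group held 1 library, so no test was possible and the ratios compare 2 libraries, with intervals that cover counting error only. In liver all 9 genes passed a mean of 1 FPKM, and 0 of them differed by 2-fold or more on log2(FPKM + 1), against 240 of 12353 genes, or 1.94%. Log2 ratios were below 0 for 5 of the 9, against 41.7% of all genes. Slc27a2 had 322 FPKM in the treated and 242 FPKM in the vehicle liver, a log2 ratio of 0.41 (95% interval 0.38 to 0.44). Fabp3 had 1.38 FPKM in the treated and 2.55 FPKM in the vehicle liver, from 16 and 34 reads, a log2 ratio of -0.58. Cd36 had 115 FPKM in the treated and 117 FPKM in the vehicle liver, and Lrp1 had 47.3 FPKM in the treated and 42.1 FPKM in the vehicle liver. The log2 ratios of the other 5 lay between -0.24 and 0.20. Rescaling each library to the same total moved the median log2 ratio of all genes in liver to -0.09, against 0.04 as deposited, so ratios of this size rest on the scaling.

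In muscle at 24 h, 6 of the 9 genes passed the mean of 1 FPKM, and 2 differed by 2-fold or more, against 451 of 12262 genes, or 3.68%. Ratios of 2-fold or more upward were found for 2.45% of all genes and downward for 1.23%. Log2 ratios were below 0 for 2 of the 6, Vldlr and Fabp1, against 53.4% of all genes. Fabp3 had 1415 FPKM in the treated and 642 FPKM in the vehicle muscle, a log2 ratio of 1.14 (95% interval 1.10 to 1.18) in the opposite direction to its fitted value at 40 d. Cd36 had 546 FPKM in the treated and 341 FPKM in the vehicle muscle, a log2 ratio of 0.67 (95% interval 0.65 to 0.70). Slow or oxidative fibre markers summed to 260 FPKM in the treated and 56.8 FPKM in the vehicle muscle. Most of both sums was Myh2, at 224 FPKM in the treated and 36.8 FPKM in the vehicle muscle. Myh7, of the same list, was at 0.139 FPKM in the treated and 0.0663 FPKM in the vehicle muscle. Adipocyte markers summed to 3026 FPKM in the treated and 1511 FPKM in the vehicle muscle. Muscle fibre markers summed to 32710 FPKM in the treated and 53054 FPKM in the vehicle muscle. Of that list, Mb and Myh1 went the other way. Mb had 1380 FPKM in the treated and 571 FPKM in the vehicle muscle, and Myh1 had 808 and 424 FPKM. The part of these markers in the ratios of Fabp3 and Cd36 was not tested.

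Fabp1 was the other gene past 2-fold, at 0.120 FPKM in the treated and 16.3 FPKM in the vehicle muscle. That was 1 read in the treated and 142 reads in the vehicle library. It passed the mean of 1 FPKM only through the vehicle library, so it had to lie below 0 and past 2-fold. Nothing is read from its place in the count past 2-fold or in the count below 0. Slc27a2 stood at 0.0887 FPKM in the treated and 0.913 FPKM in the vehicle muscle, from 5 and 54 reads. Hepatocyte markers summed to 17.9 FPKM in the treated and 136 FPKM in the vehicle muscle. Most of the treated sum was Cyp2e1, at 12.2 FPKM in the treated and 13.9 FPKM in the vehicle muscle. Alb had 5.32 FPKM in the treated and 66.7 FPKM in the vehicle muscle. The ratio of Slc27a2 to the hepatocyte marker sum was 0.671% in the vehicle muscle, beside 0.618% in the vehicle liver at 24 h. The ratio was 0.338% in the vehicle muscle and 0.683% in the vehicle liver for Fabp2, and 0.0434% in the vehicle muscle and 0.0916% in the vehicle liver for Lipc, with 7 and 2 reads in that muscle. The log2 ratios of Lrp1, Vldlr and Slc27a4 were 0.29, -0.20 and 0.18.

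Other genes of lipid uptake were taken from 5 lists of 55 genes in all. In liver 44 of them were tested and 0 were called, with 18 fitted values above and 26 below 0. In muscle 38 were tested and 0 called, with 14 above and 24 below 0. Before adjustment 5 had p under 0.05 in liver and 2 in muscle, beside the 13.2% and 3.85% of all genes given above. Of each list, genes of smallest p are named here whatever their direction.

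Of the genes that activate or carry fatty acids, 9 were tested in liver, 2 above and 7 below 0, with a median log2 fold change of -0.18. Acsl5, an acyl-CoA synthetase, averaged 80.0 ± 16.3 FPKM in treated and 117 ± 18.8 FPKM in vehicle livers (SD, n = 6 each), a fitted log2 fold change of -0.56 with an adjusted p of 0.141 by limma. The groups did not overlap, with a median of 84.7 FPKM in treated and 110 FPKM in vehicle livers. The lowest value in vehicle livers was 105 FPKM. Acsl5 was named for its small p, which favours such separation, and the share of all genes without overlap was not counted. Acsl3 had medians of 8.78 FPKM in treated and 10.5 FPKM in vehicle livers, at -0.26 (adjusted p 0.271 by limma). In muscle 3 of 10 tested were above and 7 below 0, with a median of -0.06. Acsl1, the main synthetase of muscle, averaged 49.3 ± 7.34 FPKM in treated and 63.9 ± 7.87 FPKM in vehicle muscles, at -0.37 (adjusted p 0.999 by limma), and Acsl3 was at -0.32.

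Lipoprotein receptors and their regulators split in liver, with 6 of 10 above and 4 below 0 and a median of 0.09. Sdc1, the heparan sulfate proteoglycan that takes up remnants beside Lrp1, averaged 87.3 ± 24.5 FPKM in treated and 67.2 ± 10.5 FPKM in vehicle livers, at 0.33 (adjusted p 0.444 by limma). In muscle 1 of 9 was above and 8 below 0, with a median of -0.16, and Lrp5 and Scarb1 were at -0.24 and -0.17.

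Lipases and their cofactors had 3 of 12 above and 9 below 0 in liver, with a median of -0.11. Apoc3, an inhibitor of lipoprotein lipase carried on lipoproteins, averaged 1370 ± 143 FPKM in treated and 1849 ± 237 FPKM in vehicle livers, at -0.43 (adjusted p 0.161 by limma). No treated liver reached the lowest vehicle liver, but Apoc3 too was named for its small p. Angptl4, another inhibitor of that enzyme, was at -0.51 (adjusted p 0.406 by limma). In muscle 3 of 8 were above and 5 below 0, with a median of -0.06. Lpl, lipoprotein lipase itself, averaged 127 ± 32.9 FPKM in treated and 150 ± 24.9 FPKM in vehicle muscles, at -0.25, and Gpihbp1, its anchor on capillaries, was at -0.22.

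Of the other binding proteins, 3 were tested in liver and 2 in muscle. Fabp7 and Fabp5 were at -0.16 and 0.01 in liver, and Fabp4 and Fabp5 at 0.21 and -0.00 in muscle. Fabp4, the binding protein of fat cells and capillaries, averaged 365 ± 216 FPKM in treated and 283 ± 69.5 FPKM in vehicle muscles. Of the transcription factors, 10 were tested in liver (6 above and 4 below 0, median 0.08), where Nr1h3, the liver X receptor alpha gene, was at 0.23 and Pparg, known to drive Cd36 in fatty liver, at -0.26. In muscle 9 were tested (6 above and 3 below 0, median 0.03), with Ahr at 0.11 and Ppargc1a at -0.28. Each of these had an adjusted p of 0.406 or more by limma.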

How the data were processed

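RNA was extracted with Trizol and libraries were made with a NEBNext Ultra kit, per the labels' protocols. The authors deposited 3 tables of FPKM values, per the file headers, for liver at 40 d, muscle at 40 d and both tissues at 24 h. As builds, the submitters' processing notes name GRCm38 and mm10. Aligner, counter and strand setting: not given in the sources used here. Because the tables may have been scaled separately, treated and vehicle samples were compared within a table, and the contrast between tissues takes the difference of effects each measured within its own table. Deposited FPKM times gene length gave whole reads for 100% of values under 1000 reads, within 0.01, so reads were recovered. Pairs of libraries within a group differed by a chi-square per degree of freedom of 13.4 to 203 over 60 pairs, so none was a duplicate. The labels number the samples without naming separate mice, so p-values measure the spread between these samples.

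A gene was tested where 6 or more of the 12 libraries had 1 FPKM or more. The test was limma-trend, two-sided, on log2(FPKM + 1) (limma 3.58.1 in R 4.3.3), comparing 6 treated with 6 vehicle libraries. Adjusted p-values (Benjamini-Hochberg, over all genes tested) under 0.05 were called. Fold changes on this scale understate changes of low genes. Tissues were compared by a contrast over the 24 libraries at 40 d. The 24 h libraries were not tested. There, called meant a log2 ratio of at least 1 or at most -1 where both libraries averaged 1 FPKM or more, and 95% intervals are exact binomial intervals on reads without a pseudocount. The steps were tested on simulated data. Alternatives were a pseudocount of 0.1, no filter, rescaling of FPKM to equal totals, limma voom on reads, robust spread, a replicate block and leaving out each library. Named genes are the 9 members, the 2 genes of smallest p in each list of a tissue (1 of them is not reported here), and the 3 genes most correlated with Cd36 and Vldlr in liver and with Cd36 and Fabp3 in muscle. Markers were named where they moved with a member. The members and lists were chosen with earlier results of these data known. Values were processed with Python 3.11.15, pandas 2.3.3, NumPy 2.4.6, SciPy 1.17.1 and matplotlib 3.10.9.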

Additional observations from a re-analysis of the deposited data

Results flagged for a closer look

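At 40 d, the highest or lowest of the 6 values of a gene in a group stood apart by Dixon's test at the 95% level in 9 of 36 combinations of gene and group, where chance gives about 1 in 20. In liver both cases were treated library 5_5, with Lrp1 at 48.8 FPKM (next highest 35.0, mean of the others 32.3 FPKM) and Fabp3 at 2.86 FPKM (next highest 1.15, mean of the others 0.768 FPKM). In muscle Lrp1 was low in treated 5_2, at 13.0 FPKM (next lowest 17.5 FPKM), and Fabp3 was high in vehicle 6_1, at 2192 FPKM (next highest 1171 FPKM).

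The other 5 cases were genes of high level in liver, measured in muscle. Treated 4_5 had Fabp1 at 7.65 FPKM (next highest 0.849 FPKM) and Slc27a2 at 0.361 FPKM (next highest 0.0139 FPKM). Vehicle 3_2 had Fabp1 at 16.7 FPKM (next highest 1.06 FPKM), Slc27a2 at 1.62 FPKM (next highest 0.217 FPKM) and Lipc at 0.210 FPKM (next highest 0.0825 FPKM). Both libraries had the highest hepatocyte marker sum of their group.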

How the results depend on the processing

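None of the 9 genes was called under any alternative run at 40 d. In liver, the 28 genes called overall became 0 without the filter on low values (2310 at an unadjusted p under 0.05) and ran from 0 to 83 when single libraries were left out (treated 5_2 83, 5_3 0 and 5_5 14, vehicle 2_1 2, 2_3 0, 2_4 15, 2_5 7, 3_2 1 and 6_1 15). In muscle, the 0 genes called became 2 on rescaling FPKM to equal totals and ran from 0 to 1 with single libraries left out (1 without vehicle 6_1). The 1 gene called between tissues became 2 on rescaling, 2 by limma voom, 7 without the filter and 3 with a replicate block, and ran from 1 to 2 with single libraries left out. The sign of muscle Lrp1 (-0.04) turned on rescaling (0.0011) and with single libraries left out (-0.179 to 0.0359, above 0 without treated 5_2 or vehicle 2_1, 2_3 or 2_4), and that of muscle Slc27a4 (0.00) with single libraries left out (-0.0652 to 0.0435, below 0 without treated 4_5 or 5_5 or vehicle 2_1, 3_2 or 6_1). The cause was not tested. Label numbers were shared by liver and muscle. Deviations of same-numbered libraries correlated at -0.078 to 0.447 over 9436 genes, not above 0.1 in every pair. The same-numbered muscle library was the best match for liver 4_5, 5_2, 5_4, 2_1, 2_4, 2_5 and 3_2, and not for the other livers. These values do not settle whether a number marks the same mouse, so the main contrast did not use the numbers as pairing. With the replicate block, Lrp1 differed between tissues by 0.37 (adjusted p 0.803 by limma) and no member was called. Depth limits Fabp3 in liver, at 7 to 49 reads, and the 4 genes left untested in muscle.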
